A study of Rattus norvegicus with 7 samples.

Results

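Genes of transcellular calcium uptake and of the vitamin D response were described in crypts of the distal and of the proximal colon of the rat. They were chosen by symbol in the deposited RNA table as Trpv6, Trpv5, S100g, Atp2b1, Atp2b4, Slc8a1, Vdr, Cyp27b1 and Cyp24a1. Of these 9 genes 8 were found, among 16468 genes in all, and Cyp27b1, which encodes the enzyme that makes the active hormone, was not analysed here. RNA came from isolated colon crypts, the epithelial pits of the colon wall, of Sprague Dawley rats, an outbred strain, at 14 weeks of age. No treatment or genetic change is named for the rats of either region. The distal colon gave 1 library and the proximal colon 1 library, each from the pooled material of 7 rats, so that differences between rats were averaged before sequencing. There was no spread between replicates, and every difference below sets these 2 libraries side by side with no replicate check.

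Calcium crosses the gut epithelium in steps. It enters the cell from the lumen through TRPV channels, is carried through the cytosol by a small buffering protein, and leaves at the basal side through plasma membrane calcium pumps and the sodium-calcium exchanger. The hormone form of vitamin D binds the receptor encoded by Vdr, which acts with a retinoid X receptor on genes such as Trpv6, S100g and Cyp24a1. The enzyme of Cyp24a1 breaks the hormone down again, and the large bowel takes up part of the calcium that the small bowel leaves in the lumen.

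All 5 members with at least 1 FPKM in 1 library were numerically lower in distal crypts, and 2 of them, the cytosolic buffer S100g and the exchanger Slc8a1, were at least 2-fold lower. FPKM is the authors' value, a fragment count per length of transcript and per size of library, and genes with at least 1 FPKM in 1 library are called measured. Log2 ratios, distal over proximal, were taken on FPKM + 1, which understates differences of low genes. Every count of genes 2-fold apart uses this scale, whereas a fold printed beside FPKM values is their plain ratio. Of the 9847 measured genes of the table, 38.6% were lower in distal crypts by any amount and 3.91% at least 2-fold lower, while 3.71% were at least 2-fold higher. No member was at least 2-fold higher in distal crypts. The median log2 ratio of the 5 measured members was -0.49, beside 0.09 over all measured genes. The other 3 members found, Trpv5, Atp2b4 and Cyp24a1, stayed under 1 FPKM in both libraries.

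The start regions of 4 members are given before their values. Trpv6 and Trpv5 lie next to each other on chromosome 4 and stood far apart in level, Slc8a1 was the member with a locus of its own that differed by over 2-fold, and Vdr encodes the receptor. The RefSeq table of promoters, on the GRCr8 build, holds 7 of the 9 members, S100g and Cyp24a1 not among them. Each window runs from 250 bases before to 50 bases after the annotated start, 5′ to 3′ on the gene's strand. Capitals mark 3 kinds of word, each searched on both strands. The first is the hexamer to which Vdr and other nuclear receptors bind, taken as AGGTCA, likewise as AGTTCA, likewise as GGGTCA and likewise as GGTTCA. The second is the word of the intestinal CDX factors, TTTAT followed by A, by G or by another T, and the third is the Sp1 box GGGCGG. No marked words overlapped in these windows.
Trpv6, GRCr8 chr4:71489618-71489917, minus strand: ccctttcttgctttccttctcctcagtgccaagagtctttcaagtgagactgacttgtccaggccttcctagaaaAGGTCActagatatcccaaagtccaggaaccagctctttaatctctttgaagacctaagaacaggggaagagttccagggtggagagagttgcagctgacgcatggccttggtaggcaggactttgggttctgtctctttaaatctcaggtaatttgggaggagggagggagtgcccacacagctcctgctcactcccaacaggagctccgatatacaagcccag
Trpv5, GRCr8 chr4:71529333-71529632, minus strand: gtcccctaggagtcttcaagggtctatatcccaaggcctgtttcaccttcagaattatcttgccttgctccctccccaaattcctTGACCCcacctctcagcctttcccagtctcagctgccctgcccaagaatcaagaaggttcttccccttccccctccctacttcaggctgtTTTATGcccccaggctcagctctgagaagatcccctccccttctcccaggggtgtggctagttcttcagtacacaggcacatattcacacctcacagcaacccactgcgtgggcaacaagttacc
Slc8a1, GRCr8 chr6:19023309-19023608, plus strand: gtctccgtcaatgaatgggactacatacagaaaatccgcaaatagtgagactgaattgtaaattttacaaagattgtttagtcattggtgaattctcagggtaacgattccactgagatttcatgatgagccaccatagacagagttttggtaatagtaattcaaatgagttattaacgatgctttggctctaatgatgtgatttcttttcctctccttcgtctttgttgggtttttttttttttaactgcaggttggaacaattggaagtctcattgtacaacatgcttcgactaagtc
Vdr, GRCr8 chr7:130916708-130917007, minus strand: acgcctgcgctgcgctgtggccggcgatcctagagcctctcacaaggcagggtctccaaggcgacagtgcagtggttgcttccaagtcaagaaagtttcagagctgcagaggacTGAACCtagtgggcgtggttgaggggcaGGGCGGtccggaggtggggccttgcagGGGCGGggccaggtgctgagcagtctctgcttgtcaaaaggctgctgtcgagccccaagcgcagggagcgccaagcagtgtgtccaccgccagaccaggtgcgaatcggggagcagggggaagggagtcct

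The Trpv6 window held 1 nuclear receptor hexamer, AGGTCA, with its leftmost base at position -175, counted back from the base before the start, and the Trpv5 window held 1 on the other strand at -165. The Trpv5 window also held 1 CDX word, TTTATG at -75, and the Trpv6 window none. Slc8a1 had none of the searched words in a window of 36.3% G and C. The Vdr window, of 64.3% G and C, held 1 hexamer and 2 Sp1 boxes. The start used for Slc8a1 and for Trpv5 lies inside the annotated gene, so that other starts exist for both. The bases before such a start may belong to an intron, and neither window need be the promoter used in crypts. The Slc8a1 window is therefore not compared with that of Vdr. Among all 33469 promoters of the table, 44.4% held a hexamer, 37.3% a CDX word and 33.1% an Sp1 box, so these words are common. Vdr with its partner binds a direct repeat of the hexamer spaced by 3 bases, which was in 0.0986% of all windows and in none of the 7 members' windows. A match is a description of these letters and not a site, and no match says only that the letters are not in this window.

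Calcium entry was represented by Trpv6, the main calcium channel of the luminal membrane in the gut. It stood at 20.6 FPKM in distal crypts, against 24.4 FPKM in proximal crypts, a log2 ratio of -0.24. Both values lay in the middle of the measured genes, at percentiles 58.1 and 66.1 of the distal and proximal library. The difference was 1.19-fold, and 18.4% of all measured genes had a ratio as low or lower. In the authors' deposited table it was not called (fold change -0.25 on the log2 scale, implied error 0.30, q = 0.9996). The implied error is the deposited fold change divided by its test statistic, and it comes from the authors' model, not from replicates.

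Trpv5, the close relative of Trpv6 that carries calcium in the kidney tubule, was listed at 0 FPKM in distal crypts, against 0.156 FPKM in proximal crypts. For genes of the length of an olfactory receptor, 3 reads correspond to about 0.339 FPKM in distal crypts and 0.426 FPKM in proximal crypts, and to less for longer genes, so no fold is given. On the rn4 build of the files Trpv6 lies on chromosome 4 at 69331973 to 69347630 and Trpv5 at 69361051 to 69387346, with 13421 bases between the loci. The neighbouring channels thus differed widely in level within each library, and Trpv6 made up nearly all of the summed FPKM of the pair.

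S100g encodes calbindin-D9k, the small calcium-binding protein of the absorptive cells of the gut, and a gene long known to respond to vitamin D. Its level was 96.2 FPKM in distal crypts, against 644 FPKM in proximal crypts, which is 6.70-fold lower in distal crypts. Among measured genes it held rank 930 in distal crypts and rank 64 in proximal crypts. Its log2 ratio was -2.73, and only 37 of 9847 measured genes, 0.376%, had a ratio as low or lower. The authors' deposited table called it, with a fold change of -2.74 on the log2 scale (implied error 0.44, q = 5.01e-08).

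The table gives S100g the same locus as Ctps2, which encodes a CTP synthase, on chromosome X at 52387522 to 52541409 of rn4, a span of 153888 bases. Values of genes that share a locus can hold reads of each other, and no source used here says how the authors divided the reads. Ctps2 stood at 17.3 FPKM in distal crypts, against 17.9 FPKM in proximal crypts, a 1.03-fold difference, below S100g in both libraries. Without genes that share a locus, 4 members remained measured and 1 of them, Slc8a1, was at least 2-fold lower in distal crypts.

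**Figure D1:**
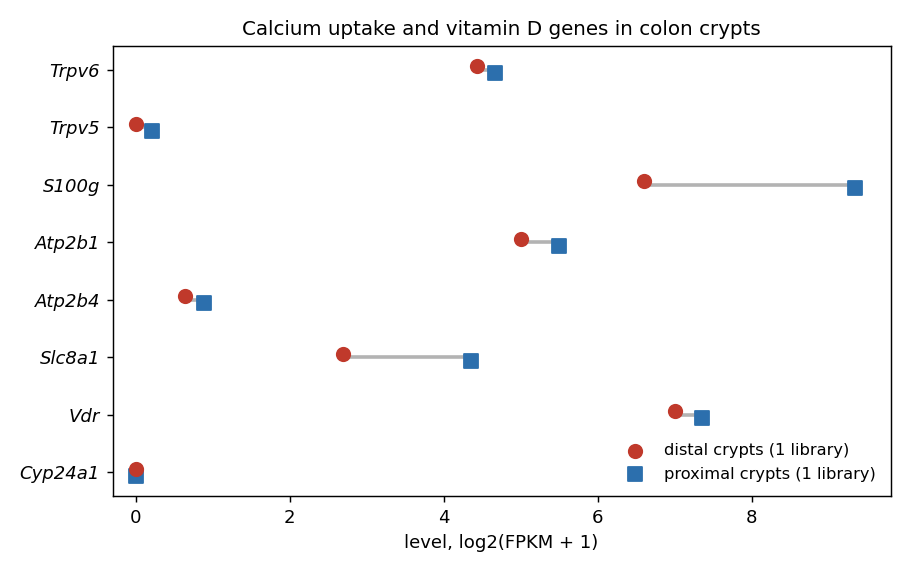
Level of the 8 members found, as log2(FPKM + 1) on the horizontal axis, in the distal (circles) and the proximal library (squares), 1 library each, so that there are no error bars. S100g, at 96.2 FPKM in distal crypts, against 644 FPKM in proximal crypts, and Slc8a1, at 5.45 FPKM in distal crypts, against 19.4 FPKM in proximal crypts, have the longest lines, and Cyp24a1 is at 0 in both.

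Genes of calcium exit differed from each other. Slc8a1, which encodes the sodium-calcium exchanger NCX1, stood at 5.45 FPKM in distal crypts, against 19.4 FPKM in proximal crypts, which is 3.56-fold lower in distal crypts. The log2 ratio was -1.66, with 118 measured genes, 1.20%, as low or lower, and the rank among measured genes was 7424 in distal crypts and 4029 in proximal crypts. The gene was called in the authors' deposited table, where the fold change was -1.83 on the log2 scale (implied error 0.38, q = 0.000112). Its locus, on chromosome 6 at 4421046 to 4691716 of rn4, is shared with no other row.

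Atp2b1, the plasma membrane calcium pump PMCA1 and the widespread form of this pump, stood at 31.1 FPKM in distal crypts, against 44.0 FPKM in proximal crypts, a 1.42-fold difference and a log2 ratio of -0.49. It lies on chromosome 7 at 36493661 to 36600280 of rn4. Of all measured genes 9.89% had a ratio as low or lower, and the authors' deposited table did not call it (-0.50 on the log2 scale, implied error 0.30, q = 0.581). Atp2b4, the pump PMCA4, on chromosome 13 at 46631205 to 46697214, stood at 0.558 FPKM in distal crypts, against 0.845 FPKM in proximal crypts, under the minimum of 1 FPKM in both libraries. Its fold change in the authors' deposited table was -0.60 on the log2 scale (implied error 0.70, q = 0.995). Within each library the pump of Atp2b1 was thus the abundant one, and in distal crypts it stood 5.70 times as high as Slc8a1 in FPKM, against 2.27 times in proximal crypts.

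The receptor gene Vdr, on chromosome 7 at 136567614 to 136617280 of rn4, was among the abundant transcripts, at 127 FPKM in distal crypts, against 162 FPKM in proximal crypts, percentiles 93.4 and 95.9 of the measured genes of the distal and proximal library. It was 1.27-fold lower in distal crypts, with a log2 ratio of -0.35, and 13.6% of measured genes had a ratio as low or lower. The fold change of the authors' deposited table was -0.35 on the log2 scale (implied error 0.31, q = 0.914). Cyp24a1, the gene of the hormone-degrading enzyme and a much used target of the receptor, on chromosome 3 at 161542131 to 161553801, was listed at 0 FPKM in both libraries and marked as not tested in the authors' deposited table. A listed 0 is not taken as absence, since Rpl36, a ribosomal protein gene that every cell uses, is also listed at 0 FPKM in both.

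In all, the authors' deposited table tested 6 members and called 2, both lower in distal crypts, against 2.69% of 10099 tested genes called lower and 2.73% called higher. The order of levels in distal crypts ran Vdr, S100g, Atp2b1, Trpv6 and Slc8a1, and in proximal crypts S100g, Vdr, Atp2b1, Trpv6 and Slc8a1. Only S100g and Vdr changed places. The level of S100g was 0.757 times that of Vdr in distal crypts and 3.98 times in proximal crypts. It was 4.67 times that of Trpv6 in distal crypts and 26.4 times in proximal crypts. Trpv6 stood at 0.162 times the level of Vdr in distal crypts and at 0.151 times in proximal crypts. With 1 library per region there is no spread by which to set neighbours in this order apart.

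**Figure D2:**
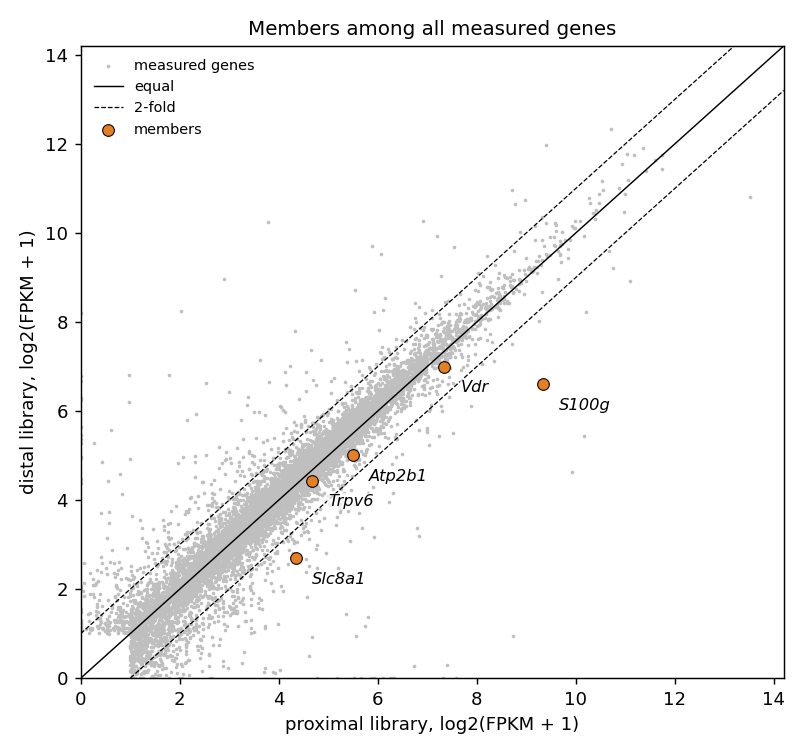
Level of each of the 9847 measured genes (grey) as log2(FPKM + 1) in proximal crypts on the horizontal and in distal crypts on the vertical axis, with the 5 measured members in orange. All 5 lie below the solid line of equal levels, and only S100g and Slc8a1 lie beyond the dashed line of 2-fold.

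For each measured member with its own locus, the 2 genes nearest in log2(FPKM + 1) over both libraries were looked up. With 2 libraries this likeness is only that of level and ratio. Nearest to Trpv6 were Myc, at a distance of 0.0095, and Dnm1l, at 0.015. The genes nearest to Atp2b1 were Stard3nl (0.0071) and Auh (0.039), and those nearest to Vdr were Ifngr1 (0.045) and Ddx17 (0.059). Slc8a1 had Coro1a, which encodes an actin-binding protein of blood cells, at 0.047, with 5.40 FPKM in distal crypts, against 20.1 FPKM in proximal crypts, and Ugt8 at 0.063.

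Crypt preparations hold other cells, and in pooled RNA fewer cells of a type and less RNA per cell cannot be told apart. All 7 epithelial markers were measured and less than 2-fold apart, and all 7 were numerically higher in distal crypts. Their median log2 ratio was 0.42, beside 0.09 over all measured genes, with Krt8 at 3436 FPKM in distal crypts, against 2328 FPKM in proximal crypts. Of 8 markers of surface colonocytes, the cells that take up ions, 7 were measured, with a median log2 ratio of -0.19. They went both ways, 3 numerically higher and 4 lower in distal crypts. Of these 1 was at least 2-fold lower, Tmigd1, and none was 2-fold higher. Ceacam1 stood at 6.71 FPKM in distal crypts, against 3.74 FPKM in proximal crypts, and Guca2a at 3449 FPKM, against 3438 FPKM. Lymphocyte markers summed to 13.6 FPKM in distal crypts, against 39.0 FPKM in proximal crypts over 6 genes, of which 3 were at least 2-fold lower in distal crypts: Ptprc and the B-cell genes Cd79b and Ms4a1. Cd79b stood at 0.502 FPKM in distal crypts, against 8.80 FPKM in proximal crypts, and Ptprc at 1.44 FPKM in distal crypts, against 8.97 FPKM in proximal crypts. The T-cell gene Cd3g was nearly equal, at 6.49 FPKM in distal crypts, against 6.37 FPKM in proximal crypts. Cd3e and Lck were numerically lower in distal crypts but less than 2-fold apart, so the markers of lymphocytes did not move as one. The 4 myeloid markers summed to 5.42 FPKM in distal crypts, against 15.3 FPKM in proximal crypts, with 1 of the 2 measured, Lyz2, which shares its locus with another gene, at least 2-fold lower in distal crypts. No lymphocyte or myeloid marker found was at 0 in either library.

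Slc8a1 is also active in muscle and nerve, so markers of these were set beside it. Smooth muscle markers summed to 48.0 FPKM in distal crypts, against 31.1 FPKM in proximal crypts over 6 genes found, most of it from Smtn, and Myh11 stood at 1.37 FPKM in distal crypts, against 1.36 FPKM in proximal crypts. Desmin (Des) stood at 2.91 FPKM in distal crypts, against 0.0398 FPKM in proximal crypts. Nerve and glia markers summed to 1.18 FPKM in distal crypts, against 2.60 FPKM in proximal crypts over 6 genes, with Sox10 at 0 in both. Endothelial markers summed to 1.49 FPKM in distal crypts, against 1.84 FPKM in proximal crypts over 3 genes, and fibroblast markers to 0.850 FPKM in distal crypts, against 0.445 FPKM in proximal crypts over 6, with Dcn and Lum at 0 in both. The part of any of these cell types, or of lymphocytes, myeloid cells or surface colonocytes, in the lower S100g and Slc8a1 values of the distal library was not tested.

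**Figure D3:**
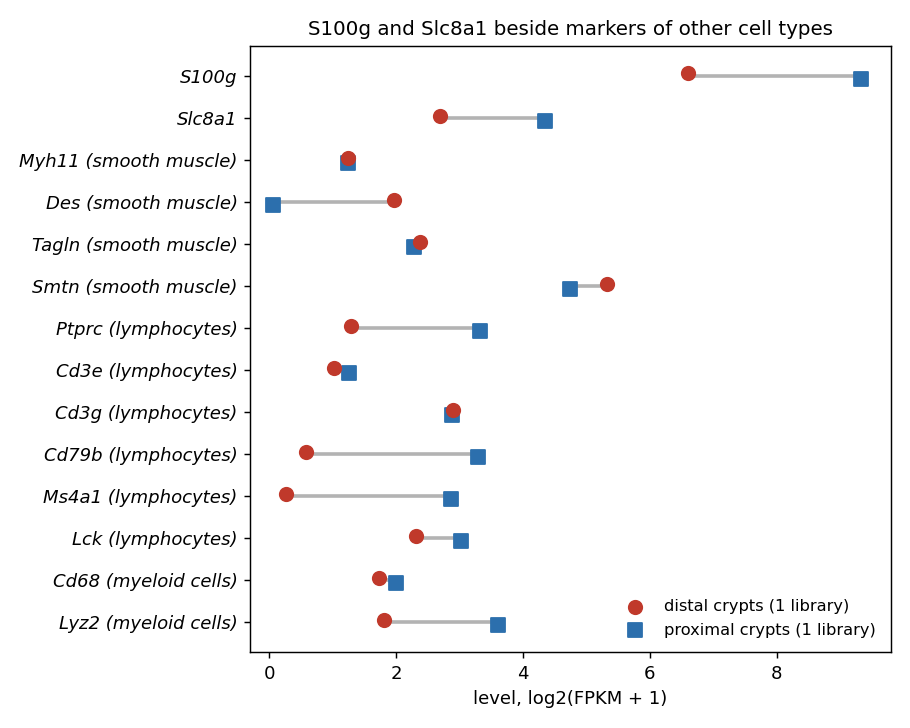
Level, as log2(FPKM + 1), of S100g and Slc8a1 (top) and of the measured markers of smooth muscle, lymphocytes and myeloid cells in the distal (circles) and the proximal library (squares), 1 library each. Cd79b, Ms4a1, Ptprc and Lyz2 lie to the left in distal crypts, as S100g and Slc8a1 do, whereas Des and Smtn lie to the right. Cd3e, Cd3g, Lck and Cd68 are less than 2-fold apart.

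Other genes of calcium and vitamin D handling were mostly not lower in distal crypts, as was so for measured genes in general. Over 10 lists without the members, 93 genes were measured, 67 numerically higher and 26 lower in distal crypts. Over all measured genes 38.6% were lower. On the lists of Vdr partners and of paracellular claudins most genes were lower. Of the 93 genes, 9 were at least 2-fold higher and 2 at least 2-fold lower in distal crypts. Their median log2 ratio was 0.19, beside 0.09 for all measured genes. The background shares are those given above, 3.71% higher and 3.91% lower.

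Proteins that bind, move or modify TRPV5 and TRPV6 had a median of 0.36 over 16 measured genes, 2 of them at least 2-fold higher in distal crypts and none lower. Pdzd3, a scaffold protein that binds these channels, stood at 11.9 FPKM in distal crypts, against 3.28 FPKM in proximal crypts (3.61-fold higher). Klk1, a tissue kallikrein described as raising channel activity in kidney, stood at 346 FPKM in distal crypts, against 163 FPKM in proximal crypts (2.12-fold), though near-identical kallikrein genes of the rat make its value uncertain. Both were called in the authors' deposited table. S100a10, which with annexin A2 brings the channels to the membrane, was the highest in level, at 451 FPKM in distal crypts, against 266 FPKM in proximal crypts. The channel gene Trpv6 itself was numerically lower in distal crypts, as given above.

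On the list of S100 and other EF-hand genes, 13 of 15 measured genes were numerically higher in distal crypts on the FPKM + 1 scale. Over all measured genes 38.6% were lower by any amount. The 15 include S100pbp (older symbol RGD1564943), whose protein binds an S100 protein and is not itself of the family. It was numerically lower in distal crypts, at 2.61 FPKM, against 3.67 FPKM in proximal crypts. Of the 15 genes, 3 were at least 2-fold higher on the FPKM + 1 scale and none was 2-fold lower, with a median of 0.49. The authors' deposited table called none of them. S100a4, a low gene, was 2.35-fold lower as a plain ratio, at 1.07 FPKM in distal crypts, against 2.52 FPKM in proximal crypts. S100a1 stood at 84.3 FPKM in distal crypts, against 32.4 FPKM in proximal crypts (2.60-fold), and S100a13 at 111 FPKM in distal crypts, against 50.1 FPKM in proximal crypts (2.21-fold). S100a8, a protein of neutrophils, was at 3.19 FPKM in distal crypts and listed at 0 in proximal crypts. S100a6 had the highest level, at 3481 FPKM in distal crypts, against 2110 FPKM in proximal crypts. In proximal crypts it was the only listed S100 gene found above S100g, which stood there at 644 FPKM. In distal crypts S100g, at 96.2 FPKM, also stood below S100a16, S100a10, S100a11 and S100a13. The larger buffer gene Calb1, a main calcium buffer of the kidney, was listed at 0 FPKM in distal crypts, against 0.273 FPKM in proximal crypts.

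Among 10 other measured genes listed for calcium entry the median was 0.49, with 1 at least 2-fold higher in distal crypts on the FPKM + 1 scale and none 2-fold lower. The list is broad and not all of its genes encode channels that pass calcium. It holds Trpm4 and Trpm5, which pass other cations, and Stim1 and Stim2, which encode calcium sensors and not channels. As plain ratios, the voltage-gated channel genes Cacna1d and Cacna1h, the second of which shares its locus with another gene, were 2.52-fold and 2.08-fold lower in distal crypts, and neither was called in the authors' deposited table. The gene on the higher side was Trpv3, a warmth-sensing channel best known from skin, at 5.09 FPKM in distal crypts, against 0.499 FPKM in proximal crypts (10.2-fold), called in the authors' deposited table. Trpm4, a channel opened by calcium that itself passes sodium and potassium, had the highest level, at 97.1 FPKM in distal crypts, against 170 FPKM in proximal crypts. Of 7 other measured calcium pumps, exchangers and pump subunits none was 2-fold apart on the FPKM + 1 scale (median 0.14, or -0.024 with equal upper quartiles of the libraries). Slc24a6, an exchanger gene now named Slc8b1, was 2.03-fold higher in distal crypts as a plain ratio, at 24.3 FPKM against 12.0 FPKM in proximal crypts, and was not called. Bsg, the highest of these and a subunit of the plasma membrane pumps, stood at 967 FPKM in distal crypts, against 752 FPKM in proximal crypts.

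**Figure D4:**
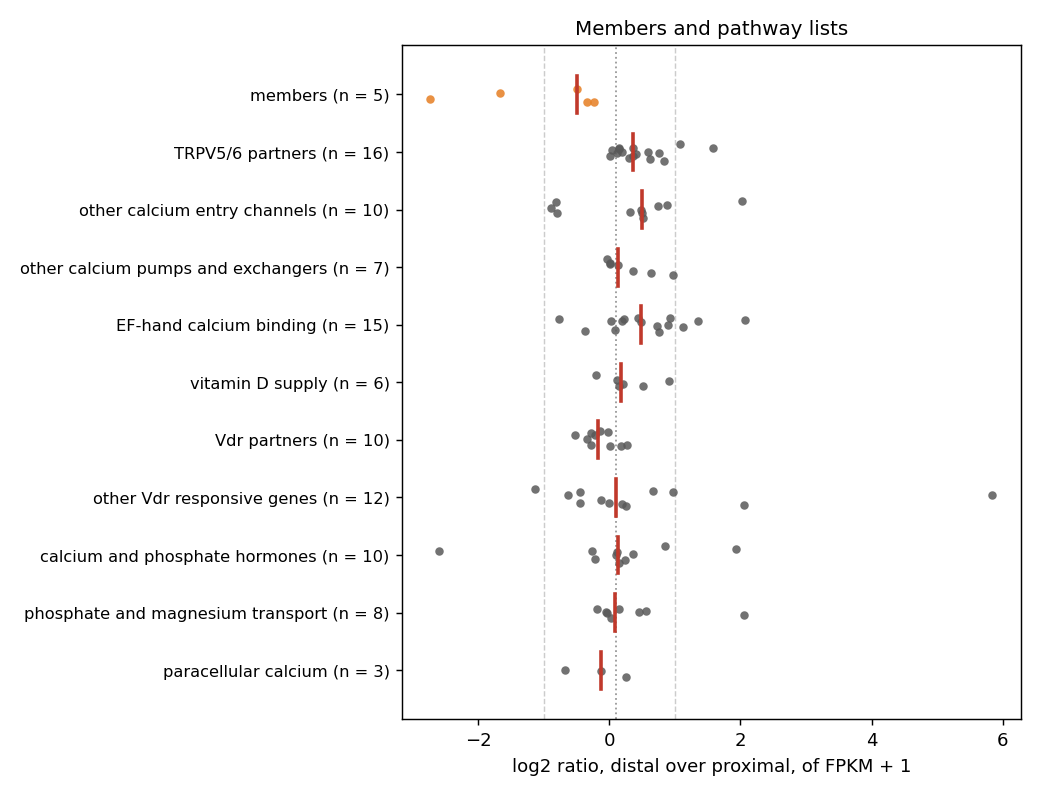
Log2 ratio of distal over proximal, on FPKM + 1, of the 5 measured members (orange) and of the measured genes of 10 lists (grey), with the median of each as a red bar, the median of all measured genes (0.09) as a dotted line and 2-fold as dashed lines. The members' median is -0.49, and those of the lists lie between -0.18 and 0.49.

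No measured gene of vitamin D supply and no measured partner of Vdr was 2-fold apart on the FPKM + 1 scale. Cyp2r1, a vitamin D 25-hydroxylase, was 2.09-fold higher in distal crypts as a plain ratio, at 1.39 FPKM against 0.665 FPKM in proximal crypts, and was not called. The 6 supply genes had a median of 0.18, and they include Cyp27a1, another enzyme with that activity, at 25.2 FPKM in distal crypts, against 29.2 FPKM in proximal crypts. Pdia3, described as a membrane binding protein of the hormone, was the highest, at 444 FPKM in distal crypts, against 410 FPKM in proximal crypts. Cyp3a9, a cytochrome P450 of the family that breaks down vitamin D and drugs, was called in the authors' deposited table though under 2-fold apart, at 82.1 FPKM in distal crypts, against 43.4 FPKM in proximal crypts. The 10 measured partners of Vdr had a median of -0.18, with 7 numerically lower in distal crypts, against 38.6% of all measured genes. Rxra, the retinoid X receptor with the highest level among these partners, stood at 45.2 FPKM in distal crypts, against 54.9 FPKM in proximal crypts.

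The 12 other measured genes described as responding to vitamin D in some tissue went both ways. Their median was 0.097, which became -0.044 with equal upper quartiles, and 2 were at least 2-fold higher and 1 at least 2-fold lower in distal crypts. Slc37a2, a carrier of sugar phosphates, stood at 111 FPKM in distal crypts, against 0.961 FPKM in proximal crypts, and Slc34a2, a phosphate carrier, at 3.37 FPKM in distal crypts, against 0.0548 FPKM in proximal crypts. Both were called in the authors' deposited table, as was Cdkn1a, a cell cycle inhibitor under 2-fold apart, at 105 FPKM in distal crypts, against 53.5 FPKM in proximal crypts. On the other side stood Abcb1a, a drug efflux pump that shares its locus with another gene, at 13.9 FPKM in distal crypts, against 31.7 FPKM in proximal crypts, which was not called. Txnip, the highest of the list, stood at 918 FPKM in distal crypts, against 581 FPKM in proximal crypts.

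Genes of calcium and phosphate hormones went both ways, with 1 of 10 measured at least 2-fold higher and 1 lower in distal crypts (median 0.13, -0.020 with equal upper quartiles). Stc1, a secreted regulator of calcium and phosphate, was listed at 0 FPKM in distal crypts and stood at 5.08 FPKM in proximal crypts. Ramp2, a partner of calcitonin-family receptors, was at 13.5 FPKM in distal crypts, against 2.79 FPKM in proximal crypts (4.85-fold), and both were called in the authors' deposited table. The highest level was that of Ramp1, at 227 FPKM in distal crypts, against 211 FPKM in proximal crypts. Of 8 measured phosphate and magnesium carriers only Slc34a2 was 2-fold apart (median 0.085, which turned to -0.070 with equal upper quartiles), and Slc20a1, the highest, stood at 45.7 FPKM in distal crypts, against 30.7 FPKM in proximal crypts. The 3 measured claudins of paracellular cation flux had a median of -0.13 and none was 2-fold apart, with Cldn15 at 141 FPKM in distal crypts, against 225 FPKM in proximal crypts.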

How the data were processed

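RNA of crypts was analysed from 2 libraries, 1 distal and 1 proximal, and the 5 chromatin libraries were not analysed here. CASAVA, TopHat2 and rn4 are named for these samples, per the submitters' processing notes, without versions. The deposited table holds the authors' FPKM per region, and the authors' log2 fold change, statistic, p-value and q-value. The values were taken as FPKM because they are not whole and sum to 463340 for distal and 412814 for proximal crypts. No source used here gives their scaling against each other or their read numbers. The deposited p-value equals the normal tail of the test statistic within 2.76e-06.

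Of 16492 rows, 23 with too few data or a failed test and 1 repeated row were left out, and 16468 genes were kept. Starts were raised by 1, since 1186 of 1187 short olfactory receptor loci then span a multiple of 3 bases. A single read was taken as the commonest p-value among genes at 0 in the other library (0.169 distal, 0.149 proximal). A fold is given only where both values are at least 0.426 FPKM. No test was made with 1 library per group, and no interval for reads can be given. Called means a call in the authors' deposited table.

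The members and the 10 gene lists were chosen with earlier results of these data known. From each list the text names up to 3 genes at least 2-fold apart on each side and the highest in level, and other genes it names, such as Calb1, Cyp27a1, Cyp2r1, Cyp3a9, Cdkn1a, S100a4, Slc24a6, Cacna1d, Cacna1h and the markers, were picked after their values were seen. Older symbols were matched through the RefSeq gene table of GRCr8. Counting was tested on simulated data. Alternatives were a pseudocount of 0.1 or 5 FPKM in place of 1, a minimum of 5 FPKM or none, 2 scalings, 1.5-fold and 4-fold, and leaving out genes that share a locus. Python 3.11.15, pandas 2.3.3 and numpy 2.4.6 were used. A further gene was left out and is not reported here.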

Additional observations from a re-analysis of the deposited data

How the results depend on the processing

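A pseudocount added to both values cannot change the sign of a ratio, and both scalings lowered the distal values. All 5 measured members thus had to stay lower in distal crypts, which is no check of direction, and only the sizes could move. The log2 ratio ranged from -2.90 to -2.68 for S100g, from -1.81 to -1.22 for Slc8a1, from -0.65 to -0.44 for Atp2b1, from -0.51 to -0.34 for Vdr and from -0.40 to -0.20 for Trpv6. The value of -1.22 for Slc8a1 is that with 5 FPKM as pseudocount. Setting the median log2 ratio to 0 shifted the distal library by -0.10 on the log2 scale, and equal upper quartiles by -0.17.

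The count of members at least 2-fold lower was 1 without genes that share a locus (Slc8a1) and 1 at 4-fold (S100g), and it was 2 otherwise. Counts of list genes 2-fold apart that changed by over 1.5 times, or to or from 0, were as follows. Smaller changes are not listed, such as EF-hand genes from 3 to 2 with a pseudocount or a minimum of 5 FPKM or with equal upper quartiles. The TRPV5/6 partners gave 1 under each scaling, 6 at 1.5-fold and 0 at 4-fold. Calcium entry genes gave 3 with a pseudocount of 0.1 FPKM, 0 with 5 FPKM, 2 with equal upper quartiles and 6 at 1.5-fold. Pumps and exchangers gave 1 with 0.1 FPKM and 2 at 1.5-fold. EF-hand genes gave 5 with 0.1 FPKM, 8 at 1.5-fold and 1 at 4-fold. Vitamin D supply and paracellular claudins gave 1 each at 1.5-fold. Vitamin D responsive genes gave 1 with 5 FPKM and 6 at 1.5-fold, hormone genes 1 at 4-fold, and phosphate and magnesium carriers 0 with a pseudocount or a minimum of 5 FPKM. The cause of these changes was not tested. List medians moved by less than the median implied error of their genes, but often by over 1.5 times: between 0.049 and 0.25 for vitamin D supply, 0.20 and 0.38 for TRPV5/6 partners, -0.34 and -0.15 for Vdr partners, 0.22 and 0.72 for EF-hand genes, 0.31 and 0.51 for calcium entry, -0.024 and 0.36 for pumps and exchangers, -0.044 and 0.23 for vitamin D responsive genes, -0.020 and 0.15 for hormone genes, -0.070 and 0.089 for phosphate and magnesium carriers, and -0.30 and 0 for claudins. No paired analysis was possible because each region had 1 library. Nothing is read from the differences of Atp2b4, Trpv5 and Cyp24a1, all under 1 FPKM.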

Other observations

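Genes that neighbour the members on the chromosome were looked up after the members' values were seen. Within 200 kb of the S100g locus 4 other genes, Ctps2 among them, were listed and measured, and none was 2-fold apart. Syap1, 5626 bases from the locus, stood at 47.4 FPKM in distal crypts, against 30.1 FPKM in proximal crypts, and Rbbp7 at 57.5 FPKM in distal crypts, against 57.9 FPKM in proximal crypts. No other row of the table lies within 200 kb of Slc8a1. Next to Trpv6, with 117 bases between the loci, Ephb6, a receptor of the ephrin family, stood at 2.71 FPKM in distal crypts, against 1.19 FPKM in proximal crypts.

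Near Cyp24a1, itself listed at 0, Bcas1 stood at 105 FPKM in distal crypts, against 33.9 FPKM in proximal crypts, and was called in the authors' deposited table. None of the 4 measured genes within 200 kb of Vdr was 2-fold apart, nor was the 1 near Atp2b1. Within 200 kb of Atp2b4, 4 genes were measured, of which 1 was at least 2-fold higher and 1 at least 2-fold lower in distal crypts. Prelp, a matrix proteoglycan gene, stood at 68.0 FPKM in distal crypts, against 15.3 FPKM in proximal crypts, while Lax1, an adaptor gene of lymphocytes, stood at 0.803 FPKM in distal crypts, against 3.37 FPKM in proximal crypts. The authors' deposited table called both.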
